A study of Mus musculus with 2 samples.

Results

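The genes described here are 10 members of the metallothionein and antioxidant defence system, chosen by symbol from the gene table: Mt1, Mt2, Prdx1, Prdx2, Cat, Gpx1, Sod1, Sod2, Txn1 and Txnrd1. They are 10 of the 27998 genes of the series, and all 10 were found in the table. They were read in single-cell RNA profiles of cells sorted from mouse hindlimb muscle as YFP-positive and CD11b-negative, 1 library taken at day 28 after hindlimb ischemia surgery and 1 at day 0 from mice with no surgery. Both groups carried the same alleles, Fsp1-Cre and R26R-EYFP, in which Cre under the promoter of Fsp1 (the gene S100a4) turns on a permanent YFP label. The label therefore marks any cell in whose ancestry that promoter was active, not a single cell type. The labels used here give neither the age of the mice nor how many were pooled. With 1 library per group no difference has a replicate check, no test was possible, and every interval below is an exact 95% interval that covers counting error only.

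Metallothioneins are small, cysteine-rich proteins that bind zinc and copper, and their genes are switched on by metal through metal response elements in their promoters. The other members handle reactive oxygen in sequence: superoxide dismutases turn superoxide into hydrogen peroxide, and catalase, glutathione peroxidase and peroxiredoxins remove the peroxide. Thioredoxin, kept reduced by thioredoxin reductase, returns peroxiredoxins to their active form. Peroxiredoxin 2, catalase and glutathione peroxidase are known as major peroxide-removing enzymes of red blood cells.

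The promoters of both metallothionein genes are shown because both genes stood high in plasma cell-like and erythroid-like cells, and that of Prdx1 because its level was lower at day 28 in every class compared. The windows are 250 bases before to 50 after the RefSeq start on GRCm38.p6, all on the plus strand, and all 10 members had an entry. Mt1 (ENSMUSG00000031765) and Mt2 (ENSMUSG00000031762) are neighbours on chromosome 8, with 5513 bases between them. Capitals mark metal response element words (TGCACNC or TGCGCNC, either strand) in Mt1 and Mt2, and an antioxidant response element word (TGACNNNGC, either strand) in Prdx1.
Mt1 promoter, chr8:94178839-94179138: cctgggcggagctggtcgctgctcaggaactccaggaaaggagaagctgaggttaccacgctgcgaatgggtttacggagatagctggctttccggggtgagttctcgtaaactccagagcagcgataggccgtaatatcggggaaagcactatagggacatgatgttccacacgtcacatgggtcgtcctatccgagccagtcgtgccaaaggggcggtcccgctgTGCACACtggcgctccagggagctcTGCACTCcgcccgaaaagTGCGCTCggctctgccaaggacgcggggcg
Mt2 promoter, chr8:94172368-94172667: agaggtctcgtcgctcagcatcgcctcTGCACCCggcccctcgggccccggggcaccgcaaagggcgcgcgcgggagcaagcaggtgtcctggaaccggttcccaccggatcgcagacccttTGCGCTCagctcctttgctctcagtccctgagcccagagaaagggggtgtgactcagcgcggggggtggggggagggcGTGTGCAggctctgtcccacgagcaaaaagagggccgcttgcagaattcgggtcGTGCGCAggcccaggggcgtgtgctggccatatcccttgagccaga
Prdx1 promoter, chr4:116685349-116685648: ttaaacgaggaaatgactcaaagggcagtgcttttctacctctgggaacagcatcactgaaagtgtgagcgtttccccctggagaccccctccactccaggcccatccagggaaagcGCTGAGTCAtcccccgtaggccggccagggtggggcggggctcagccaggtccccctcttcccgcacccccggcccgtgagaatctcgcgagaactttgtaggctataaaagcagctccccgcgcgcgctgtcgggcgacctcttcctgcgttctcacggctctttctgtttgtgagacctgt
The Mt1 window held 3 metal response element matches and the Mt2 window 4, while none was found in the windows of the other 8 members. Of 32851 mouse promoter windows of this length, 25.7% held at least 1 such match and 1.969% held at least 3. The antioxidant response element word occurred in the windows of Prdx1, Mt2 and Sod1 and in 1 of 3 windows of Txnrd1, and in 12.39% of all windows. These are letter matches only.

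The libraries held 2653 barcodes at day 28 and 2668 at day 0, with 38785525 and 19574562 UMIs. Median depth was 12265 UMIs per barcode at day 28 and 4844 at day 0, and 13 barcode sequences occurred in both libraries. After filtering, 2580 cells at day 28 and 2610 at day 0 were clustered without the members among the clustering genes, and clusters were named from marker lists. Of the kept cells, 24.1% at day 28 and 15.1% at day 0 stayed unnamed. Named cells were nearly all of haematopoietic kinds. Markers of the labelled tissue were scarce: the summed level of a skeletal muscle fibre list was 30.8 counts per 1000000 UMIs (CPM) at day 28 and 74.7 at day 0. The 9 classes compared had at least 20 cells in each library. They held 84 cells at day 28 and 27 at day 0 for plasma cell-like, 203 and 128 for erythroid-like, 385 and 80 for neutrophil progenitor-like, 430 and 207 for monocyte progenitor-like, 303 and 137 for haematopoietic stem or early progenitor-like, 75 and 35 for basophil or mast cell-like, 120 and 119 for plasmacytoid dendritic cell-like, 236 and 195 for B lymphocyte precursor-like, and 96 and 945 for T or NK lymphocyte-like cells. Plasma cell-like and basophil or mast cell-like cells numbered under 50 at day 0, so their values there are shallow.

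Levels are summed UMIs of a class and library, as CPM, and a ratio is day 28 over day 0. A pair of member and class was compared where the mean of both levels was at least 10 CPM, which kept 84 pairs. Of these, 6 were at least 2-fold higher at day 28 and 5 at least 2-fold lower, and 47 had a ratio interval that left out 1. The share of all genes with such an interval is not given here, so the 47 are not set against a background. In T or NK lymphocyte-like cells, 2 of 9 members compared, Mt1 and Txn1, were at least 2-fold higher, against 6.39% of all 6162 genes compared. Mt1 was at least 2-fold higher in B lymphocyte precursor-like cells (1 of 9 members, 1.09% of genes) and in plasmacytoid dendritic cell-like cells (1 of 9, 4.29% of genes). Mt2 was so in neutrophil progenitor-like cells (1 of 10, 0.651% of genes) and plasma cell-like cells (1 of 10, 10.1% of genes). Mt1 in T or NK lymphocyte-like and plasmacytoid dendritic cell-like cells, and Mt2 in neutrophil progenitor-like cells, lay under 10 CPM at day 0. These pairs met the minimum only through their day 28 level, which limits what their calls can show. Prdx1 was at least 2-fold lower in erythroid-like (1 of 10, 2.57% of genes), haematopoietic stem or early progenitor-like (1 of 9, 5.4% of genes) and neutrophil progenitor-like cells (1 of 10, 1.89% of genes). Of these, the erythroid-like call was met in 9 of 19 alternatives (ratios 0.437 to 0.582), and was lost for example without the cell filter and with another clustering seed. Cat was at least 2-fold lower in plasmacytoid dendritic cell-like cells (1 of 9, 8.49% of genes), and Txnrd1 in plasma cell-like cells (1 of 10, 10.5% of genes). The Cat call was met in 9 of 18 alternatives (ratios 0.429 to 0.689), and the Txnrd1 call in 15 of 18 (0.380 to 0.774), not in thinned cells and not without the cell with the most Txnrd1 UMIs (0.584). None was at least 2-fold higher in erythroid-like (0 of 10, 2.39% of genes) or haematopoietic stem or early progenitor-like cells (0 of 9, 0.835% of genes), and none at least 2-fold lower in B lymphocyte precursor-like (0 of 9, 4.06% of genes) or T or NK lymphocyte-like cells (0 of 9, 7.08% of genes). No member passed 2-fold in monocyte progenitor-like cells, where 0.565% of genes were higher and 1.85% lower, or in basophil or mast cell-like cells, where 6.53% were higher and 10.9% lower.

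**Figure D1:**
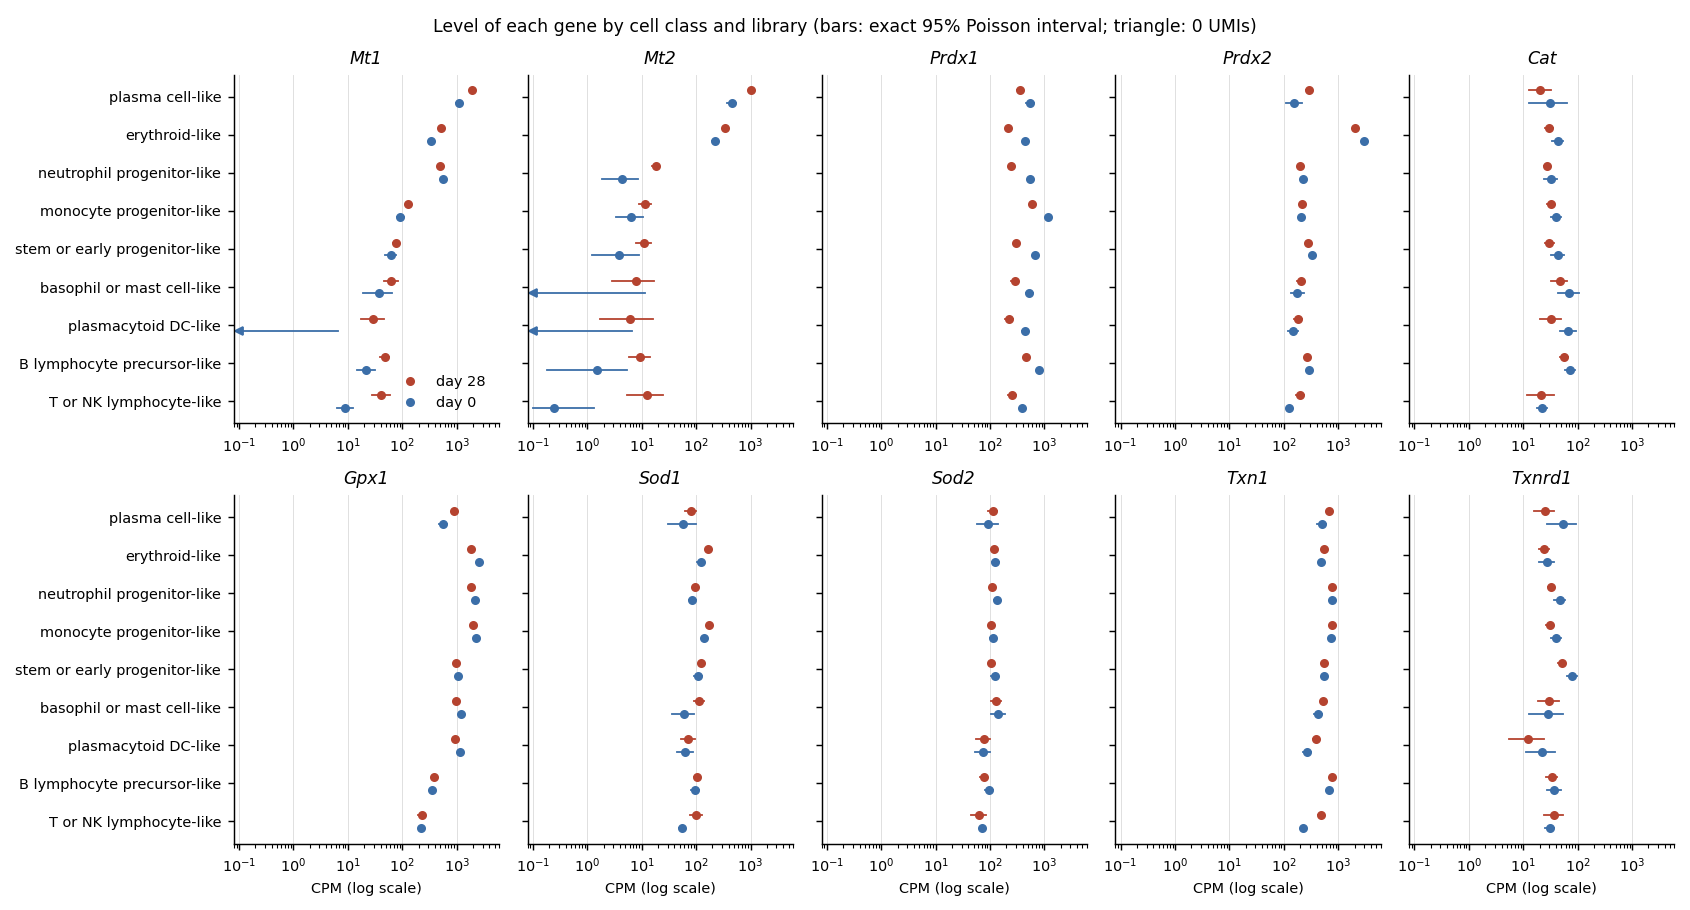
Level of each gene (CPM, log axis) in each of the 9 classes, day 28 in red above day 0 in blue, with exact 95% Poisson intervals as bars and a triangle for 0 UMIs. Mt1 and Mt2 span the widest range and are highest in plasma cell-like cells, at day 0 through a single cell, Prdx2 stands highest in erythroid-like cells, and Prdx1 is lower at day 28 in each row.

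Plasma cell-like cells had the highest level of both metallothioneins among the 9 classes in both libraries, but at day 0 not without a single cell. Mt1 stood at 1947 CPM at day 28 (1860 to 2037) and 1124 at day 0 (989 to 1271; ratio 1.73). Mt2 stood at 1002 CPM at day 28 and 449 at day 0 (ratio 2.23, 1.82 to 2.77). At day 28 the class made 3.26% of kept cells but held 16.7% of all Mt1 UMIs and 34.7% of all Mt2 UMIs. At day 0 it made 1.03% of cells and held 8.92% of Mt1 and 17.8% of Mt2 UMIs. Its median depth was 7115 UMIs per cell at day 28 and 7723 at day 0, against 12222 and 4779.5 over all kept cells.

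The plasma cell-like class was uneven, and the day 0 level rested largely on a single cell. At day 28 the 84 cells had between 0 and 215 Mt1 UMIs, with a median of 8.5, and 40 of them had at least 10. At day 0 the 27 cells had between 0 and 156, with a median of 1, and 3 had at least 10. The day 0 cell with 156 held 61.7% of the class's Mt1 UMIs and the next cell 22. Left out, an alternative chosen after seeing this cell, Mt1 was at 444 CPM and Mt2 at 165 CPM in the day 0 class, and the Mt2 ratio became 6.08. At day 0 Mt1 was then below neutrophil progenitor-like cells (561 CPM) and Mt2 below erythroid-like cells (218 CPM). With every cell thinned to 3200 UMIs, Mt1 was detected in 81.0% of cells at day 28 (70.9 to 88.7%) and 46.2% at day 0 (26.6 to 66.6%), against 88.1% and 63.0% unthinned. In the same cells Mt1 and Mt2 varied together, with a Spearman rho of 0.741 over 84 cells at day 28 and 0.750 over 26 at day 0. In the Car1-rich erythroid-like cluster 16 rho was 0.52 at day 28 and 0.47 at day 0, and in the globin-rich cluster 10 it was 0.50 and 0.20. In 385 neutrophil progenitor-like cells at day 28 it was -0.04. Thinned Mt2 in those cells had a median of 0 and a highest value of 3 UMIs, and 2.86% of them held both genes. Such low counts leave this rho little room to differ from 0. Each rho is a description of cells that share a library.

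Granule-lineage RNA was present in this class. Elane, the neutrophil elastase gene, stood at 3039 CPM at day 28 and 2265 at day 0. Most of it lay in 12 of 84 cells at day 28 and 1 of 27 at day 0 that had more than 10 Elane UMIs. Without those cells, an alternative chosen after seeing them, Elane was at 245 and 44.6 CPM while Mt1 was at 2201 CPM at day 28 and 1168 at day 0. Jchain, a defining plasma cell gene, made 7.42% of the class's UMIs at day 28 and 8.98% at day 0.

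**Figure D2:**
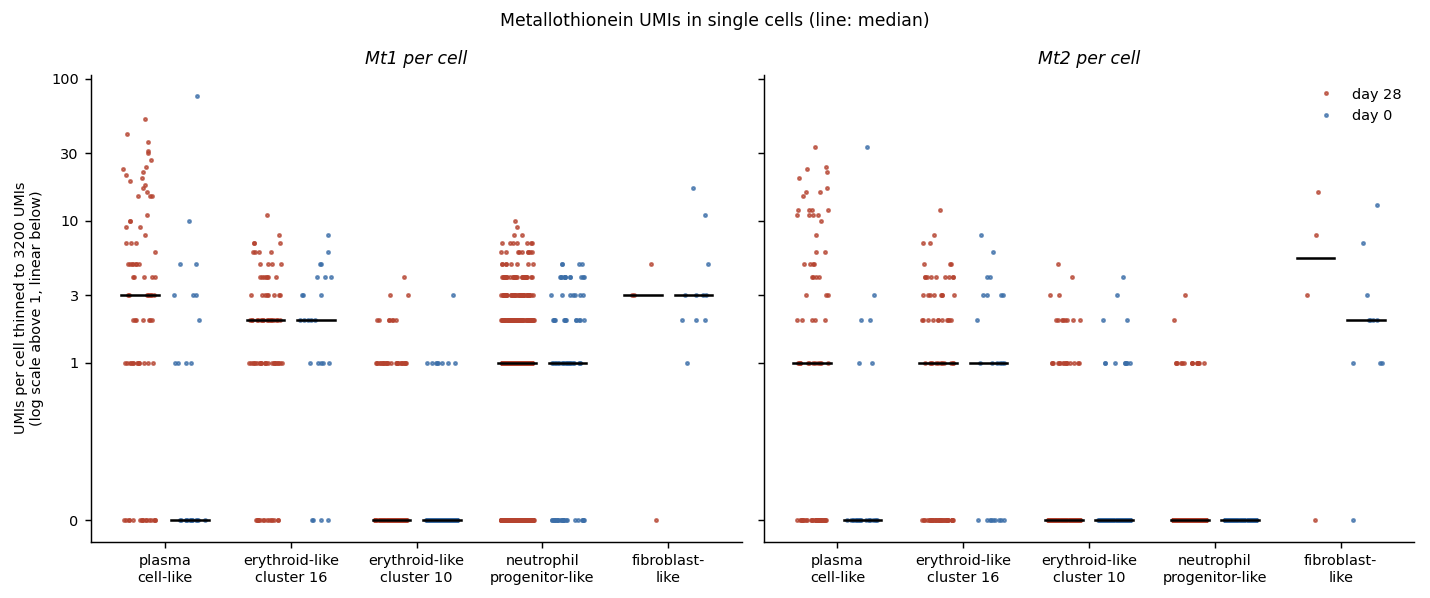
UMIs of Mt1 (left) and Mt2 (right) per cell after thinning to 3200 UMIs (log axis above 1, linear below), each dot a cell, day 28 in red left of day 0 in blue, black line the median. Plasma cell-like cells at day 28 spread from 0 to 52 Mt1 UMIs, while at day 0 a single cell has 76 and the median is 0.

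Erythroid-like cells held 18.1% of all Mt1 UMIs at day 28 and 19.5% at day 0, and 48.8% and 62.7% of all Mt2 UMIs, mostly in 1 of their 2 clusters. Pooled, Mt1 stood at 508 CPM at day 28 and 339 at day 0 (ratio 1.5), and Mt2 at 339 and 218 (ratio 1.55). Cluster 16, led by Car1 and Car2, the carbonic anhydrase genes, and itself by Mt1 and Mt2, had Mt1 at 909 CPM at day 28 and 1031 at day 0 (ratio 0.882, 0.798 to 0.976). Mt2 there was at 602 and 609 CPM, a ratio of 0.990 (0.870 to 1.13). The globin-rich cluster 10 had Mt1 at 141 CPM at day 28 and 48.0 at day 0 (ratio 2.93, 2.19 to 3.98), and Mt2 at 96.4 and 53.2 CPM (ratio 1.81). Neither cluster matched the pooled ratio. Cluster 16 supplied 85 of the 203 erythroid-like cells at day 28 and 25 of 128 at day 0, so the pooled value mixes both clusters in different shares. In cluster 10 Mt1 was the 1 of 10 members at least 2-fold higher, against 3.52% of genes.

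Neutrophil progenitor-like cells had much Mt1 and little Mt2. They held 38.0% of all Mt1 UMIs at day 28 and 36.0% at day 0, as 14.9% and 3.07% of cells, more than any other of the 9 classes. Their median depth was 22806 UMIs per cell at day 28 and 23081.5 at day 0, against 12222 and 4779.5 over all kept cells. The cell shares thus understate their part of all UMIs. Mt1 stood at 496 CPM at day 28 and 561 at day 0 (ratio 0.884, 0.826 to 0.948). This was the only class of the 9 with an Mt1 ratio below 1, except that with each library clustered separately its log2 ratio was 0.45 in place of -0.18. Mt2 stood at 18.0 CPM at day 28 (156 UMIs) and 4.39 at day 0 (8 UMIs), a ratio of 4.10 (2.03 to 9.65). Mt2 was also low and higher at day 28 in classes under the minimum of 10 CPM, at 12.3 CPM at day 28 and 0.243 at day 0 in T or NK lymphocyte-like cells and at 9.41 and 1.49 in B lymphocyte precursor-like cells. Jchain in neutrophil progenitor-like cells stood at 201 CPM at day 28 and 15.9 at day 0; scaled by it to plasma cell-like cells, 15.1% of the Mt2 there at day 28 would be matched. The part of such RNA in the Mt2 ratio was not tested beyond this value. Mt2 made 3.5% of the summed UMIs of both genes in these cells at day 28 and 0.777% at day 0. In plasma cell-like cells that share was 34.0% and 28.5%, and in cluster 16 it was 39.9% and 37.1%. The balance between the genes thus differed between classes beyond counting error in both libraries.

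In T or NK lymphocyte-like, B lymphocyte precursor-like and plasmacytoid dendritic cell-like cells Mt1 was low and its ratio above 2. T or NK lymphocyte-like cells had 41.5 CPM at day 28 (27 UMIs) and 8.98 at day 0 (37 UMIs), a ratio of 4.62 (2.70 to 7.79). B lymphocyte precursor-like cells had 47.9 CPM at day 28 and 21.7 at day 0 (ratio 2.21, 1.46 to 3.45). Plasmacytoid dendritic cell-like cells had 29.5 CPM at day 28 (19 UMIs) and 0 UMIs at day 0, a ratio of 5.45 against a floor of 3 UMIs. The upper limit of the day 0 level, 6.66 CPM, lay above that floor, so this ratio is not a lower bound. With another clustering seed this ratio was 1.23, and over the 18 alternatives it ran up to 6.70. After thinning, Mt1 was detected in 6.25% of T or NK lymphocyte-like cells at day 28 and 1.77% at day 0 (15.6% and 2.75% unthinned), with overlapping intervals. In B lymphocyte precursor-like cells it was detected in 8.90% at day 28 and 1.09% at day 0 (22.0% and 6.15% unthinned), with intervals that did not overlap.

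RNA of other classes moved in the same direction in these cells. In T or NK lymphocyte-like cells Elane stood at 129 CPM at day 28 and 28.4 at day 0, and Jchain at 250 and 19.7. Scaled by Jchain to the Mt1 level of plasma cell-like cells, 132% of the Mt1 of plasmacytoid dendritic cell-like cells at day 28 would be matched, beside 15.8% in T or NK lymphocyte-like and 7.22% in B lymphocyte precursor-like cells. Scaled by Elane to neutrophil progenitor-like cells, 25.9% would be matched at day 28 in plasmacytoid dendritic cell-like, 18.9% in T or NK lymphocyte-like and 15% in B lymphocyte precursor-like cells. At day 28 Jchain stood at 1479 CPM in plasmacytoid dendritic cell-like cells (27.1 at day 0) and at 132 in B lymphocyte precursor-like cells. Elane at day 28 was at 126 CPM in the former and 118 in the latter. The 132% thus rests on the Jchain level of plasmacytoid dendritic cell-like cells, and the origin of that Jchain was not tested. The part of such RNA in the Mt1 ratios was not tested beyond these values. The T or NK lymphocyte-like class also drew on different clusters: cluster 1 held 9 of its 96 cells at day 28 and 547 of its 945 at day 0. Within cluster 8 the Mt1 ratio was 3.11 (1.03 to 9.83) and within cluster 11 it was 3.39 (1.67 to 6.70).

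The remaining classes lay between. In monocyte progenitor-like cells Mt1 was at 126 CPM at day 28 and 92.6 at day 0 (ratio 1.36, 1.16 to 1.59). In haematopoietic stem or early progenitor-like cells it was at 77.2 and 61.9 CPM (ratio 1.25), and in basophil or mast cell-like cells at 63.2 and 37.4 (ratio 1.69), with intervals that included 1 in both. Over the 9 classes the median Mt1 ratio was 1.69, and 99.1% of the 4081 genes compared in all 9 classes had a lower median. A few fibroblast-like cells, 4 at day 28 and 12 at day 0 and too few to compare, had Mt1 at 927 and 1373 CPM and Mt2 at 2074 and 921 CPM.

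Prdx1, the abundant cytosolic typical peroxiredoxin, was lower at day 28 in all 9 classes, and in every class compared under each of the 19 alternatives run. It was highest in monocyte progenitor-like cells, at 593 CPM at day 28 and 1150 at day 0 (ratio 0.515, 0.490 to 0.543). The lowest ratio was in haematopoietic stem or early progenitor-like cells, at 298 and 676 CPM (ratio 0.441, 0.403 to 0.482). Neutrophil progenitor-like cells had 242 CPM at day 28 and 536 at day 0 (ratio 0.452), and erythroid-like cells 211 and 444 CPM (ratio 0.475). Plasma cell-like cells had 355 and 551 CPM, with the highest ratio, 0.645 (0.524 to 0.799). Without the plasma cell-like cells that had more than 10 Elane UMIs, the Prdx1 ratio of that class was 0.825, and its interval is not given here. With all cells, no ratio interval reached 1 in any of the 9 classes. The median ratio was 0.521, and 40 of 4081 genes had a lower median. A ratio below 1 in all 9 classes was found for 311 of those genes, or 7.62%, among them Prdx1 and Cat. Outside the classes compared, mature B lymphocyte-like cells, 18 at day 28 and 315 at day 0, had Prdx1 at 371 and 390 CPM (ratio 0.952, 0.731 to 1.22).

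The lower Prdx1 level also showed in the share of cells with a UMI, which is drawn from the same counts. After thinning, Prdx1 was detected in 50.1% of neutrophil progenitor-like cells at day 28 and 80.0% at day 0 (92.5% and 98.8% unthinned). In monocyte progenitor-like cells it was detected in 77.9% at day 28 and 97.6% at day 0. The thinned intervals did not overlap in 7 of the 9 classes, the exceptions being plasma cell-like and basophil or mast cell-like cells. The share of all genes without such overlap is not given here. Within the erythroid-like class, the ratio was 0.532 in cluster 10 and 0.371 in cluster 16, where Prdx1 was 1 of 10 members at least 2-fold lower, against 7.42% of genes.

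Prdx1 is also a gene whose 3' end has near-identical copies. Of the 50-base words in the last 300 bases of its transcripts, 31.8% also occurred in transcripts of Gm21399, Gm7204 or Gm15974. Among genes with a median ratio below that of Prdx1 and with such words, 14 of 33 shared at least 10% of them with another gene, against 492 of 3994 of the rest. These sets were cut at the Prdx1 ratio of these same data, so the counts describe them and test no cause. Reads from shared regions can be lost or split in counting, so the Prdx1 level is uncertain. The part of such reads in the ratio was not tested. Of the other members, Sod1 shared 18.3% of its words, Prdx2 9.76% and Sod2 4.58%, and the other 6 shared none. The summed level of immediate early and stress genes was lower at day 28 in 8 of the 9 classes as well, for example 1854 CPM at day 28 and 4219 at day 0 in haematopoietic stem or early progenitor-like cells; its part in the Prdx1 result was not tested.

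Prdx2, the peroxiredoxin of red blood cells, was set apart by erythroid-like cells. It stood at 2076 CPM at day 28 and 3004 at day 0 in that class (ratio 0.691, 0.667 to 0.716). The next class was at 286 CPM at day 28 (plasma cell-like) and 335 at day 0 (haematopoietic stem or early progenitor-like). Erythroid-like cells held 52.2% of all Prdx2 UMIs at day 28 and 59.0% at day 0, as 7.87% and 4.90% of cells. Their median depth was 17606 UMIs per cell at day 28 and 9568.5 at day 0, against 12222 and 4779.5 over all kept cells. The globin-rich cluster 10 carried most of it, at 3180 CPM at day 28 and 3905 at day 0 (ratio 0.814). Cluster 16 had 874 and 865 CPM (ratio 1.01, 0.907 to 1.13). The pooled ratio of 0.691 lay below both. Cluster 10 held 118 of the 203 erythroid-like cells at day 28 and 103 of 128 at day 0. The pooled value thus mixes both clusters in different shares. Haemoglobin genes made 5.86% of UMIs in cluster 10 at day 28 and 15.3% at day 0; their part in the Prdx2 ratio was not tested. With haemoglobin left out of the total, the log2 ratio of Prdx2 in erythroid-like cells was -0.65 in place of -0.53. Elsewhere Prdx2 was higher at day 28 in T or NK lymphocyte-like cells, at 201 and 124 CPM (ratio 1.62). The log2 ratio there was 0.70 pooled, 0.42 within cluster 8 and 0.75 within cluster 11. Prdx2 was also higher in plasma cell-like cells, at 286 and 155 CPM (ratio 1.84, 1.29 to 2.70). Without the plasma cell-like cells with more than 10 Elane UMIs, the highest Prdx2 log2 ratio of any class was 0.70 in place of 0.88. Prdx2 overlaps Junb and Rnaseh2a on the opposite strand, and reads of overlapping genes are separated only where strand was used in counting, which is not given in the sources used here.

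The other enzymes that remove peroxide were Gpx1 and Cat. Gpx1, the cytosolic glutathione peroxidase, was highest in monocyte progenitor-like cells at day 28 (1970 CPM) and in erythroid-like cells at day 0 (2579 CPM). In erythroid-like cells it stood at 1804 CPM at day 28 and 2579 at day 0 (ratio 0.699, 0.673 to 0.727). In cluster 10 alone it stood at 2450 and 3190 CPM. The log2 ratio was -0.52 in the pooled class, -0.38 in cluster 10 and -0.04 in cluster 16. The pooled value thus lay below both clusters, whose shares of the class differed between the libraries. Gpx1 was lowest in T or NK lymphocyte-like cells, at 226 and 223 CPM. In plasma cell-like cells it was higher at day 28, at 900 and 564 CPM (ratio 1.60, 1.32 to 1.94). Without the cells of that class with more than 10 Elane UMIs, its log2 ratio was 0.42 in place of 0.67. There, scaling by Elane to neutrophil progenitor-like cells would match 75.5% of Gpx1 at day 28 and 71.9% at day 0. Cat, which encodes catalase, had low counts and a ratio below 1 in all 9 classes, but in 8 of 9 with cells thinned, with per-cell CPM averaged and at resolutions 0.4 and 1.2, and in 7 of 8 with each library clustered separately. Its ratios lay between 0.488 and 0.963 with a median of 0.703. It was highest in B lymphocyte precursor-like cells, at 55.6 CPM at day 28 and 72.4 at day 0 (ratio 0.768, 0.586 to 1.01). In plasmacytoid dendritic cell-like cells it stood at 32.6 CPM at day 28 (21 UMIs) and 66.8 at day 0 (37 UMIs), a ratio of 0.488 (0.271 to 0.856).

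Of the superoxide dismutases, Sod1, the copper and zinc enzyme of the cytosol, had a ratio above 1 in all 9 classes, but in 8 of 9 with cells thinned or held to a common lowest depth, and in 7 of 8 with each library clustered separately. A ratio above 1 in all 9 held for 191 of the 4081 genes (4.68%). Its ratios ran between 1.11 and 1.89 with a median of 1.21. The highest was in basophil or mast cell-like cells, at 112 CPM at day 28 and 59.3 at day 0 (1.14 to 3.30). T or NK lymphocyte-like cells followed at 101 and 55.4 CPM (ratio 1.83, 1.37 to 2.42). The Sod1 log2 ratio of that class was 0.87 pooled, 0.37 within cluster 8 and 1.06 within cluster 11. Sod1 overlaps Scaf4 on the opposite strand. Sod2, the manganese enzyme of mitochondria, had ratios between 0.798 and 1.22 over the 9 classes. Its level ran from 63.0 CPM in T or NK lymphocyte-like to 129 CPM in basophil or mast cell-like cells at day 28, and between 72.4 and 143 CPM at day 0 in the same classes.

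Txn1, the cytosolic thioredoxin, had ratios between 1.0 and 2.14 over the 9 classes, and was above 1 in 7 of 9 with per-cell CPM averaged and in 8 of 9 under 5 other alternatives, among them leaving haemoglobin genes out of the total. In T or NK lymphocyte-like cells it stood at 482 CPM at day 28 and 225 at day 0 (ratio 2.14, 1.88 to 2.44). Within cluster 8 the ratio was 1.46 (1.16 to 1.83) and within cluster 11 it was 2.48 (2.06 to 2.96). Summed cell-cycle genes in this class stood at 810 CPM at day 28 and 190 at day 0; their part was not tested. In the neutrophil progenitor-like class Txn1 was at 763 CPM in both libraries, with a ratio interval of 0.944 to 1.06. Txnrd1, the reductase that keeps thioredoxin reduced, was highest in haematopoietic stem or early progenitor-like cells, at 51.2 CPM at day 28 and 78.7 at day 0 (ratio 0.651, 0.509 to 0.836). Its ratio was lowest in plasma cell-like cells, 24.7 CPM at day 28 (24 UMIs) and 53.3 at day 0 (12 UMIs), with an interval of 0.223 to 1.02.

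**Figure D3:**
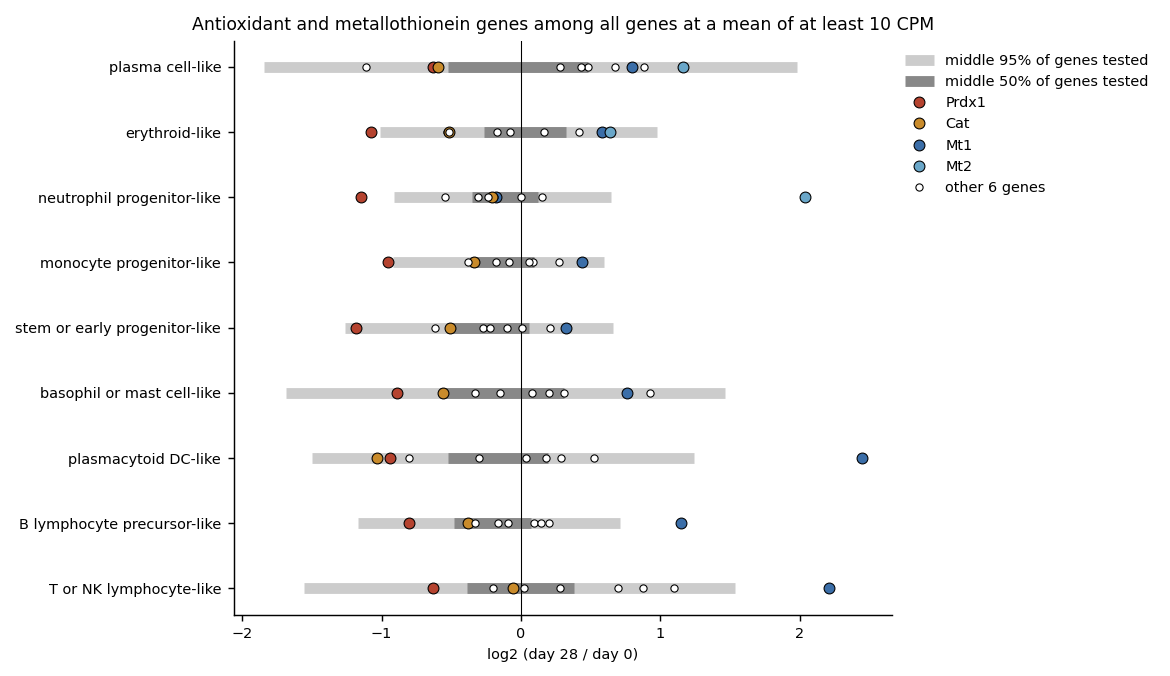
Log2 ratio of each gene (circles; Prdx1, Cat, Mt1 and Mt2 coloured, the other 6 genes white) over the middle 50% (dark bar) and middle 95% (light bar) of all genes averaging 10 CPM or more in the same class. Prdx1 lies left of the dark bar in all 9 classes, and Mt1 right of it in 8 of 9.

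Against all genes compared, Prdx1 was at percentile 1.13 in neutrophil progenitor-like, 2.06 in monocyte progenitor-like and 2.14 in erythroid-like cells. Its highest percentile was 20.7, in plasma cell-like cells. Mt1 was at percentile 99.6 in plasmacytoid dendritic cell-like and 99.3 in B lymphocyte precursor-like cells, and at 42.2 in neutrophil progenitor-like cells. The median log2 ratio of all genes ran from -0.23 in haematopoietic stem or early progenitor-like to 0.04 in erythroid-like cells. The members' own median was 0.46 in plasma cell-like and -0.22 in haematopoietic stem or early progenitor-like cells.

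Levels across clusters showed which genes were patterned like each member, over 33 points (15 clusters at day 28 and 18 at day 0) that share library and depth. The gene most like Prdx2 among 4609 was Ubac1 (Pearson r = 0.957), and Ptdss2 was also among the 3 most alike (0.945). For Txn1 it was Atp5j (0.914), for Gpx1 Creg1 (0.887), for Prdx1 Cmpk1 (0.870) and for Sod1 Setd8 (0.851). Mt1 was most like Mrps18b (0.809) and then Mt2 (0.774), and Mt2 most like Mt1. Cat was most like Nup88 (0.771), Sod2 most like Mzt2 (0.809) and Txnrd1 most like Metrn (0.729). Between members, Prdx1 and Txn1 were most alike (0.805).

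Of the wider system, 69 other genes of glutathione use, the thioredoxin system, NRF2 control, NADPH supply and metal handling were in the table, and 42 to 51 were compared in a class. At least 2-fold higher were 6 of 48 (12.5%) in plasma cell-like cells, near the 10.1% of all genes there, and at most 2 in any other class. At least 2-fold lower were 7 of 48 (14.6%) in basophil or mast cell-like cells, near the 10.9% of all genes there, and 2 to 4 in the others. The share was above that of all genes in erythroid-like cells (4 of 47, 8.51% against 2.57%). It was also above in neutrophil progenitor-like (2 of 51, 3.92% against 1.89%) and monocyte progenitor-like cells (2 of 49, 4.08% against 1.85%), on 2 genes each. Gstp1, whose level is uncertain as described below, was among the lower genes in each of the 9 classes. It was below in plasma cell-like (4.17% against 10.5%) and plasmacytoid dendritic cell-like cells (4.17% against 8.49%). In the remaining classes it lay close to that of all genes. Gsr, the glutathione reductase, was at 254 CPM at day 28 and 88.8 at day 0 in plasma cell-like cells (ratio 2.87), and Pgd, an NADPH-producing enzyme, at 107 and 26.6 CPM (ratio 4.02, 1.79 to 11.2). Of the 37 compared in all 9 classes, Fth1, Glrx3 and Txnl1 were above 1 in every class (8.11%, against 4.68% of all genes) and Txnip, Gstp1 and Park7 below (8.11%, against 7.62%). Txnip, an inhibitor of thioredoxin, was below 1 in 9 of 9 classes with a median ratio of 0.631. Fth1, the ferritin heavy chain, was above 1 in 9 of 9 with a median of 1.17. Gstp1, a glutathione transferase, had a ratio between 0.0248 and 0.0586 in all 9 classes. Of its 50-base words, 76.7% also occurred in Gstp2 or Gstp-ps, so its level is uncertain too.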

How the data were processed

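Droplet single-cell RNA libraries were made from YFP+CD11b- cells of hindlimb muscle at day 28 and day 0, 1 library each. The submitters' processing notes name Cell Ranger 2.1.1, STAR and build mm10. What was deposited is a matrix of UMI counts for each library, with no normalisation by the authors, judging from the file headers and from values that are all whole numbers. The deposited gene and barcode lists carry identifiers only, with no other values.

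Cells needed at least 500 genes, and mitochondrial UMIs no higher than 10%, which removed 17 barcodes at day 28 and 2 at day 0. Scrublet's automatic threshold marked 0.339% and 0.150% of barcodes, under a working minimum of 0.5%, so the 56 top-scoring cells of each library were removed. Clustering used scanpy 1.11.5 (2000 variable genes, the 10 members and the wider antioxidant list left out, 30 components, 20 neighbours) and leidenalg 0.10.2 at resolution 0.8, giving 20 clusters. A cluster was named from marker lists with a score of at least 2, at least 3 markers in 10% of its cells, and more own markers among its top 10 genes than any other class had; these thresholds were set after seeing the data. UMIs were summed per class and library and scaled to CPM. Intervals are exact at 95% (Poisson, Clopper-Pearson, conditional binomial). A class with 0 UMIs of a gene was placed at a floor of 3 UMIs over its sum. Shares were compared after thinning each cell to 3200 UMIs; 0 day 28 cells and 225 day 0 cells were shallower and left out. The computation was tested on simulated data. Every member was named in every class; of the wider list the 2 highest and 2 lowest ratios per class at 50 CPM could be named; the few described, and those listed as on one side of 1 in 9 of 9 classes, were picked after their values were seen. The 3 genes most like each member were taken from log2 of CPM plus 10, centred per library. Shared words came from GENCODE M21 transcripts of GRCm38. Members, lists and tests were chosen with earlier results of these data known. Depth and cells per class stand in the results. Alternatives covered the cell filter, doublet removal, clustering, scaling, thinning and the CPM minimum, with 4 added after seeing the data. One of the genes most like a member is not reported here.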

Additional observations from a re-analysis of the deposited data

How the results depend on the processing

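No paired analysis was possible because each group had 1 library, and for the same reason no replicate could be left out. No member's ratio among the pairs past 2-fold, and no Prdx1 ratio, changed direction under any of the 19 alternatives. The 5 pairs at least 2-fold lower became 3 without the filter on cells, at Leiden resolution 1.2, with another seed, with the members kept among the clustering genes, with each library clustered separately, with ratios centred on the median gene and at a minimum mean of 50 CPM, and 2 without doublet removal. The 6 pairs at least 2-fold higher became 2 at a minimum mean of 50 CPM, where 65 pairs were compared. The count of members highest in erythroid-like cells in both libraries was 1 (Prdx2) and became 2, with Gpx1 added, without the cell filter, without doublet removal, at resolutions 0.4 and 1.2, with another seed, with members kept, with separate clustering, with per-cell CPM averaged and without cluster 16. Thinning lowered the 47 intervals that left out 1 to 30. Genes past 2-fold over the 9 classes, 5555 in all, became 9320 with thinned cells, 891 at a minimum of 50 CPM and 14576 with no minimum. The thinned shares did not overlap in 14 pairs, against 19 unthinned, and the share of all genes without such overlap is not given. The Mt1 ratio of plasmacytoid dendritic cell-like cells ran between 1.23 and 6.70 and that of B lymphocyte precursor-like cells between 1.91 and 8.06; the cause was not tested.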
